A study of Mus musculus with 8 samples.

Results

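Matrilins, cartilage oligomeric matrix protein (COMP) and the thrombospondins are secreted proteins that link the fibres and proteoglycans of the extracellular matrix. The 9 genes described here, Matn1, Matn2, Matn3, Matn4, Comp, Thbs1, Thbs2, Thbs3 and Thbs4, were chosen by family name from the 31053 genes of a single-cell RNA sequencing matrix, and all 9 were detected. The cells came from the tibiae of mice at P56 (8 weeks), from trabecular bone with part of the growth plate, after most blood had been removed. All mice were MMP14 F/+ with COL10A1cre, R26-tdT and Col1a1-2.3-GFP, so all cells inherited 1 floxed Mmp14 allele. COL10A1cre acts in hypertrophic chondrocytes (HCs), where it removes that allele and switches on tdTomato, which HC descendants keep, and the Col1a1 fragment drives GFP in osteoblasts. The tdTomato transcript carries the viral element WPRE, and cells with more than 14 WPRE UMIs (unique molecular identifiers, each a counted transcript) are called WPRE-high here. A WPRE-high cell may be an HC, descend from one or express the Cre itself, and these cannot be told apart by the count. Cells of 3 mice were pooled, and the 8 labelled samples form 1 group whose cells carry no mark of sample or mouse. They were treated as 1 sample, so no value below has a replicate check and no p-value was computed. All 95% intervals cover counting error only, and are too narrow for differences between cells or mice.

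Matrilins are adaptor proteins built from von Willebrand factor A (VWA) domains, EGF-like domains and a coiled coil, and they bind collagen II and collagen IX fibrils, aggrecan and small proteoglycans. Thrombospondins 1 and 2 are trimers that bind the receptors CD36 and CD47 and restrain blood vessel growth, whereas thrombospondins 3, 4 and COMP are pentamers that hold calcium and bind collagens. Mutations of COMP and MATN3 are known causes of human skeletal dysplasias, and COMP is a standard component of cartilage and tendon.

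Cells were grouped by raw marker counts among the 4472 barcodes with at least 1600 genes, without clustering. The Col2a1 gate (at least 10 Col2a1 and at most 1 Prg4 UMIs) held 243 cells, and the Col10a1/Ihh gate (at least 5 UMIs of Col10a1 and Ihh together) held 79. The Prg4/Cilp gate (at least 2 UMIs of Prg4 and Cilp together, and Acan) held 197 cells, the Bglap gate (at least 20 Bglap UMIs) held 54, and the Cxcl12/Lepr gate (at least 20 Cxcl12 UMIs, and 2 of Lepr and Adipoq together) held 23. The Dcn/Col3a1 gate (at least 3 UMIs of each) held 164 cells, and the Ptprc gate of blood cells (at least 1 Ptprc UMI) held 3286. The labels name the cells chondro-osteogenic, but most barcodes over the gene floor thus held Ptprc, the CD45 gene of blood cells. The gates overlapped: the 6 gates other than Ptprc held 541 cells, of which 253 were in 2 or more gates and 90 held a Ptprc UMI. Of the 79 Col10a1/Ihh cells, 43 were also Col2a1 cells and 35 also Prg4/Cilp cells, and no cell was in that gate alone. Of the 54 Bglap cells, 25 were also Col2a1 cells, and 81 of the 164 Dcn/Col3a1 cells were also Prg4/Cilp cells. Median depth ran from 7733 UMIs per cell in the Cxcl12/Lepr gate to 25760 in the Bglap gate, so levels are given as counts per 1000000 UMIs (CPM). The orders of gates below set sums side by side that share these cells. Intervals of the steps between gates take the sums as separate, so shared cells make them inexact. All 11 chondrocyte markers in the matrix were present in at least 25% of the Col2a1 cells, all 12 osteoblast markers in the Bglap cells and all 9 stromal markers in the Cxcl12/Lepr cells. The Prg4/Cilp cells held 7 of 8 articular-type markers at that share, and the Dcn/Col3a1 cells 7 of 12 fibroblast or tendon markers and 7 of the 8 articular-type ones. The lists include genes that set the gates, so these counts were in part fixed by the rules. At the same share the Prg4/Cilp cells also held all 11 chondrocyte markers and the Dcn/Col3a1 cells 9 of the 11. The Col2a1 cells held 8 of the 12 osteoblast markers. The Bglap cells also held all 11 chondrocyte markers, 5 of which were at 0 in the 15 Bglap cells of no other gate.

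**Figure D1:**
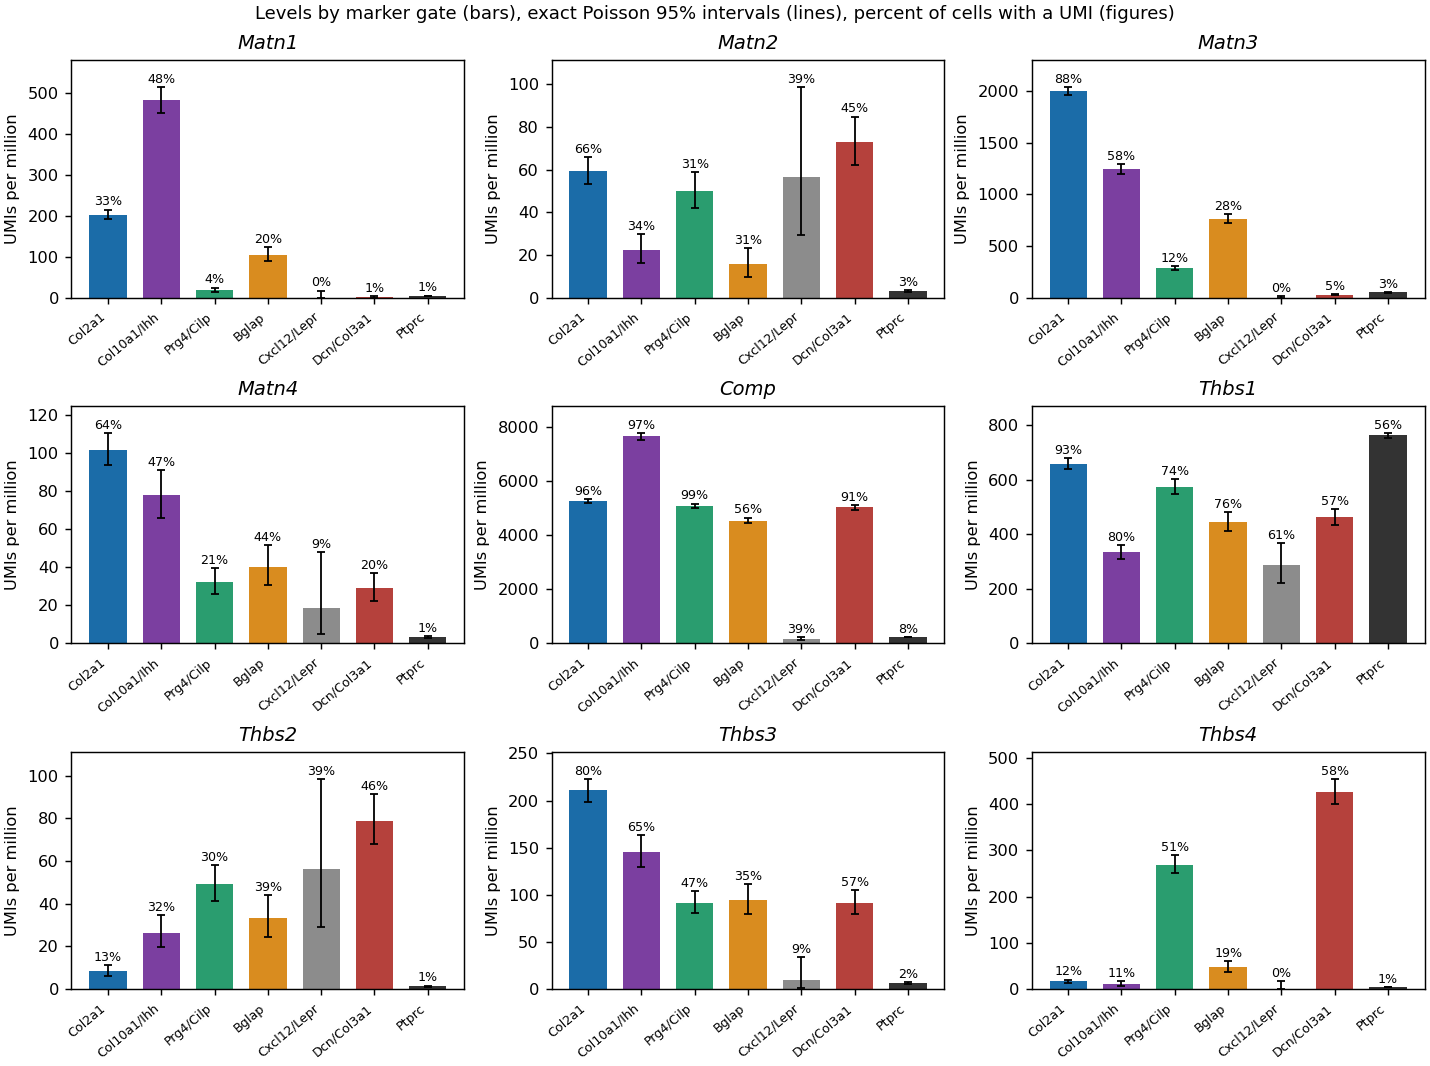
Levels of the 9 genes in the 7 marker gates, 1 panel per gene with its own axis in CPM. Bars are sums over all cells of a gate, lines are exact Poisson 95% intervals, and the percentages are the cells with at least 1 UMI. Matn1 peaks in the Col10a1/Ihh gate at 482, Matn3 in the Col2a1 gate at 1998.5, Thbs4 in the Dcn/Col3a1 gate at 427, and Thbs1 in the Ptprc gate at 761, an order that turns among cells in exactly one gate.

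Matn1 and Matn3, the matrilins known best from growth plate cartilage, were found in chondrocyte gates and hardly elsewhere. Matn1, on chromosome 4 (130944385 to 130955475, plus strand, mm10), had 482 CPM in the Col10a1/Ihh gate (95% interval 452 to 514), 203 in the Col2a1 gate (191 to 215), 105 in the Bglap gate, 19.02 in the Prg4/Cilp gate, 1.32 in the Dcn/Col3a1 gate and 4.52 in the Ptprc gate. No Matn1 UMI was seen in the 23 Cxcl12/Lepr cells, where 3 counts would give 14.1 CPM. Each step of that order down to the Dcn/Col3a1 gate was larger than its counting error.

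Matn3, on chromosome 12 (8947929 to 8972028, plus strand), took a different order. It had 1998.5 CPM in the Col2a1 gate (1962 to 2036), 1242 in the Col10a1/Ihh gate, 763 in the Bglap gate, 284 in the Prg4/Cilp gate, 52.1 in the Ptprc gate, 28.7 in the Dcn/Col3a1 gate and 0 in the Cxcl12/Lepr gate. Matn3 was seen in 87.7% of Col2a1 cells (213 of 243), with a median of 47 UMIs in the cells that held it, and Matn1 in 32.9% (80 of 243), with a median of 6. In the Prg4/Cilp gate 23 of the 197 cells held Matn3, and with every gate threshold doubled the gate's 30 WPRE-high cells had 8.59 CPM of Matn3 and its other 131 cells 8.10, with no Matn1 UMI in either.

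Cells in more than 1 gate carried much of the matrilin signal outside the Col2a1 gate. Of the Bglap cells, the 25 that were also Col2a1 cells had 1225 CPM of Matn3 and 169 of Matn1, and the other 29 had 1 Matn3 UMI in all (1.80 CPM) and no Matn1 UMI. In blood, the 3196 Ptprc cells in no other gate had 1.48 CPM of Matn3 and 0.15 of Matn1. The Ptprc gate's 52.1 CPM of Matn3 came almost wholly from cells that were in another gate too, since those 3196 cells held 2.68% of its Matn3 UMIs. The part of background RNA in the gated cells was not tested.

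The RefSeq promoter table held 6 of the 9 genes: Matn1, Matn3, Matn4, Thbs2, Thbs3 and Thbs4. The 250 bases before the RefSeq start (GRCm38.p6, the assembly of mm10) are printed for Matn1 and Matn3, which were highest in chondrocyte gates, and for Thbs2 and Thbs4, which were highest in the Dcn/Col3a1 gate. Capitals mark the only match to a TATA box (TATAAA, or TTTATA on the other strand).
Matn1 (chr4:130944135-130944384, plus strand): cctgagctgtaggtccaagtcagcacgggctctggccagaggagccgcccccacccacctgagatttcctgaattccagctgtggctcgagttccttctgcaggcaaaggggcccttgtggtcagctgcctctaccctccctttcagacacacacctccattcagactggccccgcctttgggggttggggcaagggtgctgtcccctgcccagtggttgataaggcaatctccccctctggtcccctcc
Matn3 (chr12:8947679-8947928, plus strand): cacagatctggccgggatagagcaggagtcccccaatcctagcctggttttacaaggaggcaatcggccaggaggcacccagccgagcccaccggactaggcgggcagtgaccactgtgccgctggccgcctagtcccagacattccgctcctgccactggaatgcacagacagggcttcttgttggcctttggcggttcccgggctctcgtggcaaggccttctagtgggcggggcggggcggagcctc
Thbs2 (chr17:14694263-14694512, minus strand): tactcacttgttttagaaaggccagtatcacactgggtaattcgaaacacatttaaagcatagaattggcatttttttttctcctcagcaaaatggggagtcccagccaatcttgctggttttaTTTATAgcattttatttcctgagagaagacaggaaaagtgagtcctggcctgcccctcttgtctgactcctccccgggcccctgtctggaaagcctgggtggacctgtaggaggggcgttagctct
Thbs4 (chr13:92794819-92795068, minus strand): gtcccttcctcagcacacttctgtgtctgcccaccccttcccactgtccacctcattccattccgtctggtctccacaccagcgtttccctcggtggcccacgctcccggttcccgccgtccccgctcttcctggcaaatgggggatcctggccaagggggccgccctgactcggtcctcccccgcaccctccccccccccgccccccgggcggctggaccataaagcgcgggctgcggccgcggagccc

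The Matn1 and Matn3 windows were 62% and 65.2% G or C, that of Thbs4 70.8% and that of Thbs2 46.8%, beside a median of 52.4% over 32817 mouse promoters. The TATA match of Thbs2 lay 126 bases before the start, and such a match stood in 12.4% of all promoter windows. The core of the sites bound by SOX proteins (ACAAT, or ATTGT on the other strand), searched because SOX9, SOX5 and SOX6 govern cartilage genes, was in none of the 6 genes' windows and in 27.7% of all. The letters are absent from these 250 bases, which says nothing of enhancers or of the factors.

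Within the Col10a1/Ihh gate, Matn1 went with Ihh, the signal that prehypertrophic chondrocytes send to their neighbours. The 41 cells with an Ihh UMI had 682 CPM of Matn1 (639 to 727), and the 38 without had 11.9, from 7 UMIs in 2 cells. That is a log2 ratio of 5.84 (4.79 to 7.16). Matn3 followed with 1676 CPM in the Ihh-positive cells and 219 in the Ihh-negative (log2 ratio 2.93, 2.68 to 3.20), and Comp with 9521 and 3257 (1.55, 1.48 to 1.62). The Ihh-positive cells were deeper, with a median of 33765 UMIs beside 13861, and the part of depth in these differences was not tested.

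Of the 9 genes, 6 were higher in the Ihh-positive cells by the call used throughout: at least 2-fold, an interval that leaves out 0 and at least 10 UMIs in both groups together. By the same rule 8.77% of 8936 genes were higher and 12.5% were lower. Beside Matn1, Matn3 and Comp the higher genes were Matn4 (98.9 against 28.9 CPM), Thbs1 (413 against 150) and Thbs3 (174 against 79.9). Thbs2 (12.3 against 59.5) and Thbs4 (1.44 against 35.7, from 2 and 21 UMIs) were lower. Matn2 was neither, at 26.0 and 13.6 CPM with a log2 interval of -0.20 to 2.25. Over the 9 genes the median log2 ratio was 1.46, and over all genes 0.01. The Ihh-negative cells were of another kind: 35 of the 79 Col10a1/Ihh cells were also Prg4/Cilp cells, and these had 25.6 CPM of Matn1 and 76.9 of Matn3, beside 653 and 1679 in the 43 cells that were also Col2a1 cells. Of the 10 matrilin partners, the genes of collagens II, IX and XI, aggrecan, decorin, biglycan and link protein, 8 were higher and 1 lower in the Ihh-positive cells.

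Over all 279 cells of the Col2a1 and Col10a1/Ihh gates, Matn1 climbed with the Ihh count and Matn3 did not. Matn1 stood at 39.9 CPM in the 230 cells without Ihh, 159 in the 14 cells with 1 to 4 UMIs, 475 in the 19 cells with 5 to 19 and 1213 in the 16 cells with 20 or more. Matn3 stood at 1823, 2360, 1917 and 1263 CPM in the same bins. Comp was highest in the third bin, at 3633, 7587, 11849 and 7342 CPM. The bins with Ihh held fewer than 20 cells each, and the Matn1 intervals of the 4 bins did not overlap.

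**Figure D2:**
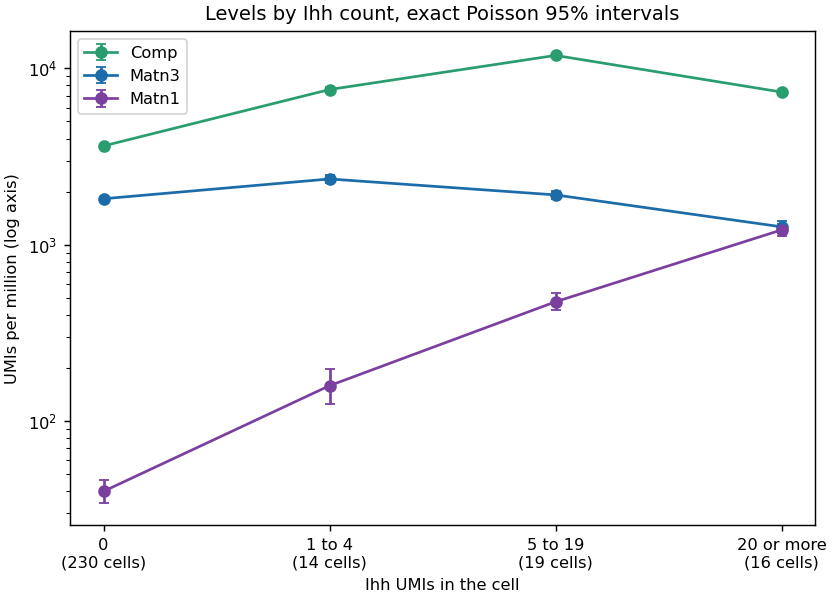
Comp, Matn3 and Matn1 in the 279 cells of the Col2a1 and Col10a1/Ihh gates, binned by Ihh UMIs (horizontal axis, with the number of cells), in CPM on a log axis with exact Poisson 95% intervals. Matn1 climbs from 39.9 to 1213 across the bins, Matn3 ends lowest in the last bin at 1263, and Comp peaks at 11849.

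Nearly every cell with Matn1 also held Matn3, and most cells with Matn3 had no Matn1. In the Col2a1 gate 79 of the 80 Matn1 cells held Matn3, and 79 of the 213 Matn3 cells (37.1%) held Matn1. Both were seen in 35 of the 41 Ihh-positive cells of the Col10a1/Ihh gate (85.4%, 70.8% to 94.4%) and in 2 of the 38 Ihh-negative cells. After every cell was thinned to 3000 UMIs, the share with both was 57.4% in the Ihh-positive cells and 1.5% in the Ihh-negative, and 15.6% in the whole Col2a1 gate, where it had been 32.5% at full depth.

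**Figure D3:**
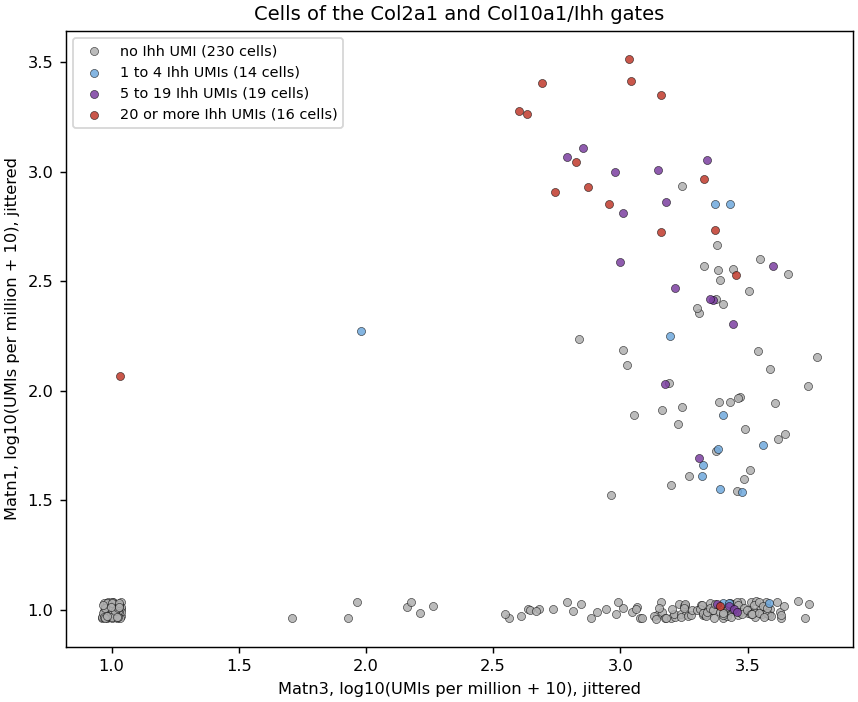
Matn3 (horizontal) against Matn1 (vertical) in each of the 279 cells of the Col2a1 and Col10a1/Ihh gates, both as log10 of CPM plus 10 with a small random jitter. Colours mark the Ihh count. Cells without either gene sit at the lower left, the long row along the bottom holds Matn3 without Matn1, and the 16 cells with 20 or more Ihh UMIs lie mostly at the top.

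The genes nearest to each matrilin over the 541 cells of the 6 gates, by Pearson's r of log2(UMIs per 10000 plus 1), set Matn1 and Matn3 apart. Nearest to Matn1 were Ihh (r = 0.75), Wnk4 (0.73), Nrgn (0.69), Loxl4 (0.66) and Gmpr (0.63). Nearest to Matn3 were the collagen IX genes Col9a1 (r = 0.93), Col9a3 (0.88) and Col9a2 (0.87), with Cnmd (0.91), which encodes chondromodulin, and Mia (0.83). All points share 1 pool and differ in depth, and Matn1 had r = 0.38 and Matn3 r = 0.49 with log2 of the cell's total UMIs. The r of Matn1 with Matn3 was 0.34.

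Within the Col2a1 gate, Matn3 varied with Ucma, a marker of upper growth plate chondrocytes. Outside the Col10a1/Ihh gate, the 141 cells with at least 10 Ucma UMIs had 2556 CPM of Matn3 and the other 59 had 701. Matn4 (121 against 47.0 CPM) and Thbs3 (262 against 92.9) were likewise higher in the Ucma cells, whereas Matn1 (49.98 against 48.9) and Comp (4015 against 3687) were close. Thbs4 lay the other way, at 8.12 CPM in the Ucma cells and 66.5 in the rest. In cells that held at least 2 of the division genes Top2a, Mki67 and Birc5, 42 in all, Thbs1 had 359 CPM, beside 903 in the 158 others. Matn3 had 2329 and 2017 CPM in the same cells. Median depth was 19416 UMIs in the Ucma cells and 13267 in the 59 others. It was 28784 in the 42 cells with division genes and 16813 in the 158 others. Of the 141 Ucma cells 31 were in another gate too, and of the 59 others 27. The part of depth and of shared cells in these differences was not tested.

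Matn4, a matrilin of many tissues, was like Matn3 highest in the Col2a1 gate, at a lower level, but fell less outside the chondrocyte gates. It had 102 CPM in the Col2a1 gate (93.8 to 111), 78.0 in the Col10a1/Ihh gate, 40.03 in the Bglap gate, 32.3 in the Prg4/Cilp gate, 29.1 in the Dcn/Col3a1 gate, 18.8 in the Cxcl12/Lepr gate (4 UMIs, 3 of them in 1 cell) and 3.27 in the Ptprc gate. The Bglap, Prg4/Cilp, Dcn/Col3a1 and Cxcl12/Lepr neighbours in that order did not differ beyond counting error. Among cells in exactly one gate, the Dcn/Col3a1 cells had 42.4 CPM of Matn4 and 1.93 of Matn3, and the Bglap cells 31.9 and 3.54. The Cxcl12/Lepr cells had 20.9 and 0, and the Prg4/Cilp cells 29.9 and 168. The nearest gene to Matn4 was Matn3 (r = 0.49), followed by Col9a1 (0.48).

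Matn2, the matrilin found in nerve, skin and fibrous tissue, was not confined to the cartilage gates. It had 72.9 CPM in the Dcn/Col3a1 gate (62.2 to 84.9), 59.4 in the Col2a1 gate, 56.4 in the Cxcl12/Lepr gate (12 UMIs), 49.9 in the Prg4/Cilp gate, 22.3 in the Col10a1/Ihh gate, 15.6 in the Bglap gate and 3.08 in the Ptprc gate. The 4 highest gates followed each other in steps of at most 0.30 on the log2 scale, and of these steps only the first left out 0, with a lower bound of 0.02. Among the Dcn/Col3a1 and Prg4/Cilp cells, binned by Fmod and Tnmd together, Matn2 stood at 38.4 CPM in the 106 cells with no UMI of either, at 29.8 and 35.7 in the middle bins and at 107 in the 66 cells with at least 20. These bins follow Fmod, which encodes the matrix protein fibromodulin, since the tendon gene Tnmd was seen in 1.52% of Prg4/Cilp and 8.54% of Dcn/Col3a1 cells and Fmod in 64.0% and 63.4%. Fmod was also its nearest gene over the 541 cells (r = 0.34).

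Set against the Prg4/Cilp gate, the Col2a1 gate was higher in 4 of the 9 genes and lower in 2, beside 9.46% and 12% of 12583 genes. This comparison asks how the chondrocytes of the growth plate type differ from those with the articular genes Prg4 (lubricin) and Cilp, and cells in both gates were left out. Matn1 (208 against 5.66 CPM) and Matn3 (1997 against 61.5) had log2 ratios of 5.20 and 5.02. Of the 14 Matn1 UMIs in the 185 Prg4/Cilp cells, 1 cell held 92.9%. Matn4 (103 against 25.5 CPM, log2 ratio 2.01) and Thbs3 (208 against 71.2, log2 ratio 1.55) were higher too, and Thbs4 (16.8 against 301, log2 ratio -4.16, -4.49 to -3.84) and Thbs2 (8.61 against 54.6, log2 ratio -2.67) were lower. Comp (5289 against 5113 CPM) and Thbs1 (672 against 594) were on a level, with log2 ratios of 0.05 and 0.18. Over the 9 genes the median log2 ratio was 0.36, and over all genes -0.06. In the lists beside them, 8 of the 10 matrilin partners were higher, Col9a1 by 4.28 on the log2 scale and among the 8 Col2a1 and Acan, which the gate rules used, and 4 of the 5 counted tendon genes were lower.

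The Col10a1/Ihh gate was compared with the 200 Col2a1 cells outside it. Its cells were not all of the hypertrophic type: 35 of the 79 were Prg4/Cilp cells, and over the gate the 8 articular-type markers summed to 29004 CPM and the 8 hypertrophic ones to 19871. Matn1 was higher (482 against 49.7 CPM, log2 ratio 3.28, 3.06 to 3.50), and so was Thbs2 (26.3 against 7.81, from 52 and 33 UMIs). Of the 52 Thbs2 UMIs, 37 lay in the 35 cells shared with the Prg4/Cilp gate, which had 72.9 CPM, beside 10.4 in the 43 cells shared with the Col2a1 gate. Those 2 genes compare with 5.24% of 12031 genes that were higher. Matn2 (22.3 against 70.8 CPM) and Thbs1 (334 against 746) were lower, beside 11.2% of all genes. Comp missed the 2-fold line by little, at 7654 against 3936 CPM (log2 ratio 0.96, 0.93 to 0.99). Matn3 was at 1242 against 2107 CPM, a log2 ratio of -0.76. The median was -0.60 over the 9 genes and -0.17 over all.

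Comp, on chromosome 8 (70373558 to 70382066, plus strand), was high in every skeletal gate but one. It had 7654 CPM in the Col10a1/Ihh gate (7533 to 7777), 5265 in the Col2a1 gate, 5084 in the Prg4/Cilp gate, 5029 in the Dcn/Col3a1 gate, 4546 in the Bglap gate, 226 in the Ptprc gate and 165 in the Cxcl12/Lepr gate (35 UMIs). The whole Prg4/Cilp and Dcn/Col3a1 gates, which share 81 cells, had sums within counting error of each other. With the shared cells left out, the Dcn/Col3a1 gate had 3030 CPM and the Prg4/Cilp gate 3758 (log2 ratio -0.31, -0.37 to -0.25). With every gate threshold doubled, that ratio turned to 0.12. It was seen in 99.0% of Prg4/Cilp cells and 90.9% of Dcn/Col3a1 cells, and in 6.26% of the 3196 Ptprc cells in no other gate, at 8.70 CPM and a median depth of 9804.5 UMIs.

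The level of the Bglap gate depended on the cells it shared with the Col2a1 gate. The 25 shared cells had 7052 CPM of Comp and the other 29 had 410, and 1 of those 29 cells held 53.5% of their 228 Comp UMIs. At the edge of that gate, the 15 cells with 20 to 38 Bglap UMIs had 9665 CPM of Comp and 1504 of Matn3, and the 17 cells with 11 to 19 UMIs, just outside, had 6739 and 1467. The osteoblast gene Bglap was thus found at low counts in cells with cartilage matrix genes. It was found in such cells at higher counts too. Of the 54 Bglap cells, 25 were Col2a1 cells and only 15 had 20 to 38 Bglap UMIs. Scrublet, a doublet caller, marked 0 of the 54 Bglap cells.

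In the Dcn/Col3a1 gate, Comp varied with Fmod. The 78 cells with at least 5 UMIs of Tnmd and Fmod together had 7666 CPM of Comp (7499 to 7835) and the other 86 had 2734 (2642 to 2829). Those 78 cells include 58 that were in another gate too, and Fmod itself was highest in the Col2a1 gate, at 1470 CPM beside 1111 in the Dcn/Col3a1 gate. Over the bins of Fmod and Tnmd among Dcn/Col3a1 and Prg4/Cilp cells, Comp stood at 2308, 3885, 6202 and 6474 CPM. Its nearest genes over the 541 cells were Chad (r = 0.69), which encodes the cartilage protein chondroadherin, Mfge8 (0.62), Cd9 (0.55), 1500015O10Rik (0.54) and Fmod (0.49).

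Thbs4, on chromosome 13 (92751590 to 92794818, minus strand), a thrombospondin of tendon and muscle matrix, marked the Dcn/Col3a1 and Prg4/Cilp gates. It had 427 CPM in the former (400 to 454) and 269 in the latter, 47.5 in the Bglap gate, 17.0 in the Col2a1 gate, 11.7 in the Col10a1/Ihh gate, 4.50 in the Ptprc gate and 0 in the Cxcl12/Lepr gate. It was seen in 57.9% of Dcn/Col3a1 cells (95 of 164) and 50.8% of Prg4/Cilp cells (100 of 197), and in 1.03% of Ptprc cells. The 55 Dcn/Col3a1 cells in no other gate had 700 CPM. Its nearest genes were Plxdc2 (r = 0.50), Dkk3 (0.46), S100a4 (0.44), Pam (0.44) and Col3a1 (0.43), the last a gene of the gate. Thbs4 had r = -0.40 with log2 of the cell's total UMIs. Of the 95 Dcn/Col3a1 cells with Thbs4, 92 held Comp too.

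Thbs2, on chromosome 17 (14665500 to 14694235, minus strand), was scarce, with 306 UMIs in the 541 cells. It had 79.0 CPM in the Dcn/Col3a1 gate (67.9 to 91.5), 56.4 in the Cxcl12/Lepr gate (12 UMIs), 49.2 in the Prg4/Cilp gate, 33.2 in the Bglap gate, 26.3 in the Col10a1/Ihh gate, 8.48 in the Col2a1 gate and 1.28 in the Ptprc gate. Only the steps from the Prg4/Cilp to the Bglap gate and from the Col10a1/Ihh gate downward left out 0. Its nearest genes were Col3a1 (r = 0.46) and Lox (0.43), which encodes a collagen crosslinking enzyme.

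Thbs3, on chromosome 3 (89215180 to 89226837, plus strand), was highest in the Col2a1 gate. It had 211 CPM in the Col2a1 gate (199 to 223), 146 in the Col10a1/Ihh gate, 94.3 in the Bglap gate, 91.8 in each of the Prg4/Cilp and Dcn/Col3a1 gates, 9.41 in the Cxcl12/Lepr gate (2 UMIs) and 6.33 in the Ptprc gate. Among cells in exactly one gate, the Dcn/Col3a1 cells came next after the Col2a1 cells, with 149 CPM of Thbs3 beside 262, and stood above the Prg4/Cilp cells at 75.6 (log2 ratio 0.97, 0.44 to 1.53). Those Dcn/Col3a1 cells held 1 Matn3 UMI and no Matn1 UMI. Its nearest gene over the 541 cells was Matn3 (r = 0.59), followed by Col9a1 (0.56) and Epyc (0.54). Thbs3 overlaps exons of Mtx1 on the other strand, as Matn4 does Rbpjl, Thbs1 Gm29233 and Matn2 9430069I07Rik. No source at hand states whether the counting used strand, and reads in those stretches are uncertain.

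The Dcn/Col3a1 gate was compared with the Prg4/Cilp gate, which asks how cells with fibrous matrix genes differ from articular-type chondrocytes. With the 81 shared cells left out, 3 of the 9 genes were higher and 2 lower, beside 10.6% and 8.76% of 10774 genes. Thbs4 (387 against 133 CPM, log2 ratio 1.54), Thbs2 (92.6 against 37.7, log2 ratio 1.30) and Matn2 (73.0 against 34.0, log2 ratio 1.10) were higher. Matn3 (52.6 against 477 CPM) and Matn1 (2.67 against 32.2, from 3 and 53 UMIs) were lower, and 1 cell held 84.7% of the Matn3 UMIs of the Dcn/Col3a1 side. With every gate threshold doubled, Matn3 turned to a log2 ratio of 2.87 and 5 genes were higher and 0 lower, beside 11.3% and 6.44% of 10443 genes. Thbs3, at 97.1 against 95.4 CPM, had a log2 ratio of 1.30 with the doubled thresholds. Comp was at 3030 against 3758 CPM, a log2 ratio of -0.31. For Comp this turned to 0.12 (0.06 to 0.18) with the doubled thresholds, and was 0.0075 (-0.079 to 0.094) among cells in exactly one gate. Thbs1 was at 313 against 550 CPM, a log2 ratio of -0.81. For Thbs1 this became -2.07 (-2.39 to -1.77) among cells in exactly one gate and -0.59 with the doubled thresholds. The median log2 ratio was -0.11 over the 9 genes and 0.07 over all. Of the 5 counted tendon genes 3 were higher, among them Tnmd (55.2 against 0.61 CPM), and all 3 cartilage factors, Sox9, Sox5 and Sox6, were lower.

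**Figure D4:**
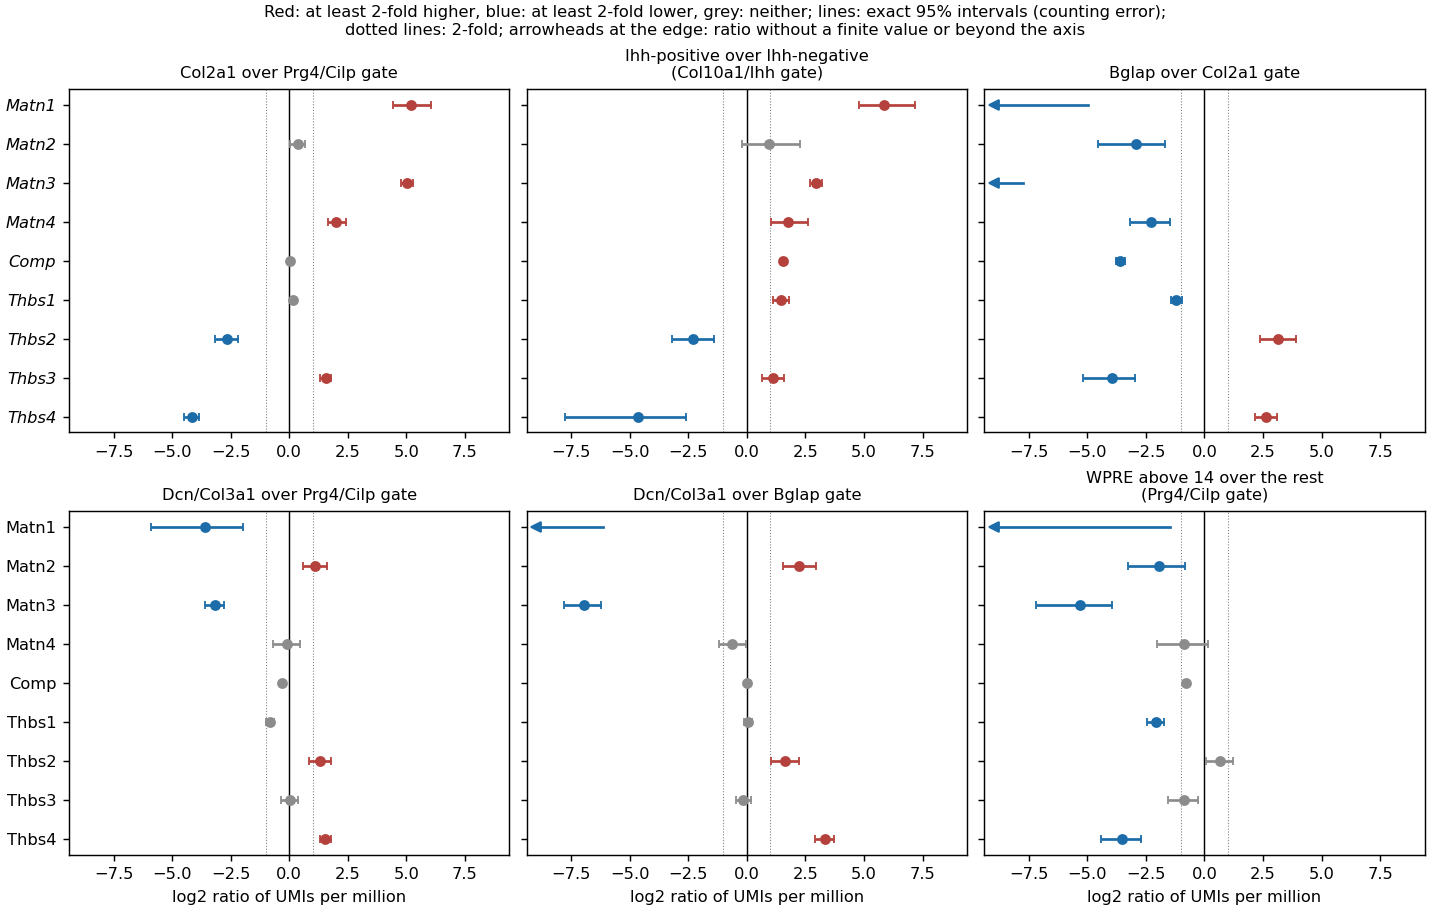
Log2 ratios of CPM of the 9 genes in 6 of the comparisons, with exact 95% intervals of counting error. Red points are at least 2-fold higher, blue at least 2-fold lower and grey neither, and dotted lines mark 2-fold. Matn1 and Matn3 lie far from Thbs2 and Thbs4 in each panel but that of the WPRE classes, where Thbs4 lies low beside them.

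Against the osteoblast-type cells of the Bglap gate, the Dcn/Col3a1 gate had more Thbs4 (509 against 51.1 CPM, log2 ratio 3.32), Matn2 (86.7 against 18.6) and Thbs2 (85.6 against 27.9). Matn1 was lower, with no UMI in 152 cells against 141 CPM, at least 87.9-fold when 3 counts are set against the group's 0, and so was Matn3 (8.03 against 998 CPM, log2 ratio -6.96). Those 3 higher and 2 lower genes stand beside 17% and 5.98% of 10877 genes. Comp had like sums, at 5908 and 5892 CPM, but the median cell had 5057 CPM in the Dcn/Col3a1 gate and 58.7 in the Bglap gate. Over the 8 genes with UMIs on both sides the median log2 ratio was 0.03, and over all genes 0.28. Since 25 of the Bglap cells were Col2a1 cells, the comparison was repeated with cells in exactly one gate, and 5 genes were then higher and 0 lower, beside 23% and 4.48% of 7207 genes. Comp was one of the 5, at 3816 against 95.6 CPM (log2 ratio 5.32, 4.77 to 5.92).

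Compared with the Col2a1 gate, the 29 Bglap cells outside it were lower in 7 of the 9 genes and higher in 2, beside 13.8% and 7.51% of 11781 genes. Comp was at 410 against 4919 CPM (log2 ratio -3.58, -3.78 to -3.40), Thbs3 at 14.4 against 224, Matn4 at 23.4 against 112, Matn2 at 8.99 against 67.0 and Thbs1 at 299 against 681. Matn3 had 1 UMI against 10190, and Matn1 none against 994, which is at least 38.8-fold lower. Thbs2 (57.5 against 6.54 CPM, log2 ratio 3.14) and Thbs4 (120 against 19.6, log2 ratio 2.62) were higher. With the gate thresholds doubled, Thbs2 alone was higher and 6 genes were lower, beside 7.21% and 14.4% of 11768 genes. Thbs4 then had a log2 ratio of 0.57 (-0.35 to 1.39), Thbs1 one of -0.98 that fell short of 2-fold, and Comp one of -6.59 (54.4 against 5247 CPM). Of the 67 Thbs4 UMIs, found in 7 of the 29 cells, 1 cell held 40.3%. The median log2 ratio was -2.58 over the 8 genes with UMIs on both sides, -2.90 with Matn1 at its bound, and -0.21 over all genes. Of the matrilin partners, 7 of 10 were lower, among them Col2a1, which the gate rule used, and 1 was higher.

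The Bglap gate and the Cxcl12/Lepr gate, of marrow stroma, shared no cell. Matn1, Matn3 and Thbs4 had no UMI in the 23 stromal cells, and set against 3 counts they were at least 7.45-fold, 54.1-fold and 3.37-fold higher in the Bglap gate. Comp (4546 against 165 CPM) and Thbs3 (94.3 against 9.41, from 139 and 2 UMIs) were higher, which makes 5 genes, beside 6.01% of 9172 genes. Matn2 was lower (15.6 against 56.4 CPM, from 23 and 12 UMIs), beside 22.8% of all genes. Without the cell with most Matn2 UMIs, Matn2 had a log2 ratio of -1.33 (-2.54 to 0.04) and was no longer called. The 29 Bglap cells outside the Col2a1 gate held 67 of the gate's 70 Thbs4 UMIs and had 410 CPM of Comp. Among cells in exactly one gate, 15 Bglap and 20 Cxcl12/Lepr cells, Thbs4 alone was higher (26 UMIs against 0) and Matn2 alone lower (2 against 10), beside 5.46% and 27.6% of 5344 genes. There Comp had a log2 ratio of -0.94 (-1.72 to -0.17) and Thbs3 one of -0.56 (-6.86 to 5.73). Over the whole gates Thbs2 was at 33.2 and 56.4 CPM and Thbs1 at 446 and 287, both within 2-fold. The median log2 ratio was 0.86 over the 6 genes with UMIs in both gates, 1.75 with the other 3 at their bounds, and -0.55 over all genes.

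WPRE-high cells were compared with the rest in the Prg4/Cilp gate and in the Bglap and Cxcl12/Lepr gates together. In the Col10a1/Ihh gate 45 of 79 cells and in the Col2a1 gate 27 of 243 were WPRE-high, and these were not compared. In the Prg4/Cilp gate, 30 cells had more than 14 WPRE UMIs and 167 did not, and 0 of the 9 genes were higher and 5 lower in the former, beside 2.57% and 7.83% of 10479 genes. Thbs4 was at 27.9 against 317 CPM (log2 ratio -3.51, -4.42 to -2.73), Matn3 at 8.59 against 339, Thbs1 at 157 against 658 and Matn2 at 15.0 against 56.9, and Matn1 had no UMI against 22.8 CPM (at least 3.55-fold lower against 3 counts). Of the 53 Matn1 UMIs in the rest, 1 cell held 56.6%. Comp was at 3185 against 5465 CPM (log2 ratio -0.78), Thbs3 at 53.7 against 99.5 and Thbs2 at 70.8 against 44.8. The median log2 ratio was -1.41 over the 8 genes with UMIs on both sides, -1.83 with Matn1 at its bound, and -0.24 over all genes. The WPRE-high cells also differed in their gates and other genes: 24 of the 30 were also Col10a1/Ihh cells, and Sox9 was higher in them (3005 against 1262 CPM) and Fmod lower (210 against 1304).

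With more than 4 WPRE UMIs as the limit, Matn2 had a log2 ratio of 0.056 in that comparison (-0.58 to 0.65). With the gate thresholds doubled, 3 genes were lower, beside 6.96% of 9792 genes, and Matn3 had a log2 ratio of 0.085 (-1.98 to 1.76).

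In the Bglap and Cxcl12/Lepr gates together, 27 cells were WPRE-high and 50 were not. No gene of the 9 was higher and 4 were lower, beside 4.69% and 5.71% of 9172 genes. Comp was at 1316.5 against 5148 CPM, Matn3 at 171 against 881, Thbs3 at 15.7 against 113, and Thbs4 had no UMI against 59.4 CPM (at least 10.1-fold lower). In the WPRE-high cells, the cell with most UMIs of each gene held 83.4% of the Comp, 75.9% of the Matn3 and 87.5% of the Thbs3 UMIs. The classes drew on the gates unequally: 10 of the 23 Cxcl12/Lepr cells, 6 of the 25 Bglap cells shared with the Col2a1 gate and 11 of the other 29 were WPRE-high. Among cells in exactly one gate, 19 WPRE-high and 16 others, 2 genes were higher and 1 lower, beside 1.68% and 8.96% of 5344 genes. Thbs1 was higher there, at 425 against 143 CPM (log2 ratio 1.57, 0.96 to 2.23), and in all cells it had been at 313 against 474. Matn4 was higher too (12 UMIs against 1), and Thbs4 lower (0 against 26). The median log2 ratio in all cells was -0.69 over the 8 genes with UMIs on both sides, -0.79 with Thbs4 at its bound, and -0.01 over all genes.

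Thbs1, on chromosome 2 (118111876 to 118127133, plus strand), was the one gene of the 9 found mainly outside the skeletal gates. Of its 69529 UMIs, 7.97% lay in the 541 cells of the 6 gates, beside 84.1% to 98.2% for the other 8 genes. It had 761 CPM in the Ptprc gate (753 to 770), 658 in the Col2a1 gate (637 to 679), 574 in the Prg4/Cilp gate, 462 in the Dcn/Col3a1 gate, 446 in the Bglap gate, 334 in the Col10a1/Ihh gate and 287 in the Cxcl12/Lepr gate. Among cells in exactly one gate the Ptprc gate was no longer highest, with 844 CPM in the Prg4/Cilp cells, 808 in the Col2a1 cells and 772 in the Ptprc cells. The step from the Col2a1 to the Ptprc cells was 0.066 on the log2 scale (0.0026 to 0.13).

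Outside the 6 gates Thbs1 differed between groups of blood cells, which were set by marker counts and may share cells. The 1211 cells with at least 100 UMIs of the neutrophil granule genes Camp, Ngp and Ltf had 1189 CPM (1172 to 1205), and 641 monocyte-type cells with at least 2 UMIs of Ccr2 had 1102 (1079 to 1126). In contrast, 1107 B-type cells with at least 5 UMIs of Cd79a and Cd79b together had 261 CPM, 554 cells with at least 3 of Cd3e and Nkg7 together had 195, 72 macrophage-type cells with at least 10 complement C1q UMIs had 160 and 44 cells with at least 5 UMIs of the platelet-lineage genes Pf4, Ppbp and Itga2b together had 104. A cell could enter these sums through 1 of the genes: among all Ptprc cells, Cd3e was seen in 1.73% and Nkg7 in 22.3%, and Ppbp in 0.33%.

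Vessel cells differed as well. The 33 mural-type cells with at least 5 UMIs of Rgs5, Acta2 and Myh11 together had 659 CPM of Thbs1 (567 to 762) and the 48 endothelial-type cells with at least 3 of Cdh5, Pecam1 and Emcn together had 80.4 (56.9 to 110). In the 14 osteoclast-type cells with at least 10 UMIs each of Ctsk and Acp5, 1 cell held 97.0% of the Thbs1 UMIs.

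The chondrocyte level of Thbs1 was as high in cells without Ptprc. The 142 Col2a1 cells in no other gate, and so without Ptprc, had 808 CPM (774 to 842) and held 489 CPM of the 9 neutrophil markers together, beside 132610 in the Ptprc cells of no other gate. They were 94.4% positive for Thbs1, and 74.2% after thinning to 3000 UMIs. The 56 such Prg4/Cilp cells had 844 CPM, of which 1 cell held 19.2%, and their neutrophil markers summed to 6311 CPM, a part in the Thbs1 level that was not tested. The Bglap, Cxcl12/Lepr and Dcn/Col3a1 cells in no other gate had 347, 262 and 201 CPM.

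**Figure D5:**
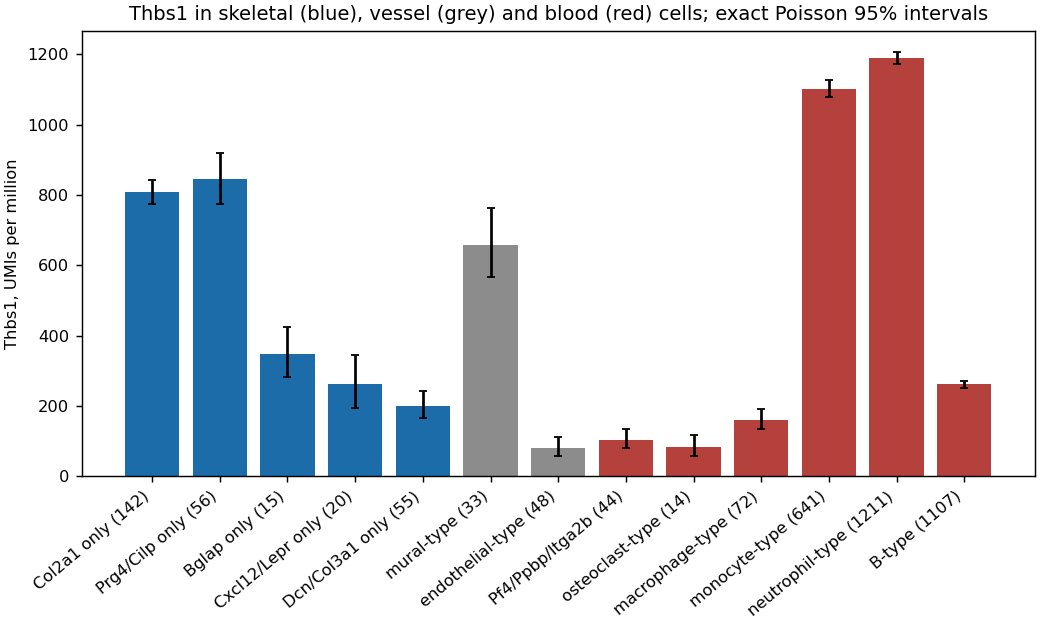
Thbs1 in CPM in skeletal cells of exactly one gate (blue), vessel cells (grey) and blood cells (red) defined by the marker counts in the text, with the number of cells in brackets and exact Poisson 95% intervals. The neutrophil-type and monocyte-type cells stand highest at 1189 and 1102, followed by the Prg4/Cilp and Col2a1 cells at 844 and 808, and the endothelial-type cells lowest at 80.4.

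Cd47 and Cd36, which encode receptors of thrombospondins 1 and 2, were highest outside the chondrocyte gates. Cd47 had 496 CPM in the Ptprc gate, 329 in the Cxcl12/Lepr gate, 257 in the Dcn/Col3a1 gate, 235 in the Prg4/Cilp gate, 130 in the Bglap gate, 113 in the Col10a1/Ihh gate and 91.3 in the Col2a1 gate. Cd36 was highest in the Cxcl12/Lepr gate at 84.6 CPM (18 UMIs) and was at 16.9 in the Ptprc gate and at most 6.10 in the other 5. Of the 14 receptors and partners listed, 4 were lower and 0 higher in the Col2a1 than in the Prg4/Cilp gate, beside 12% and 9.46% of all genes. In the Bglap gate 8 of the 12 counted were lower than in the Cxcl12/Lepr gate and 1 was higher, beside 22.8% and 6.01%. The highest of the list in the Col2a1 gate were Sdc4 (1395 CPM), a heparan sulphate proteoglycan, and Calr (687 CPM), the calreticulin gene.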

How the data were processed

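The deposited matrix holds raw counts of UMIs per gene and barcode, which the authors made with Cell Ranger 3.1.0 by aligning to mm10 and to exogenous sequences (GFP, tdTomato, WPRE). The pool held 12564 barcodes of 500 to 103543 UMIs (median 5417). Coordinates are those of GENCODE M21, which held 30934 of the identifiers. Summed UMIs of a gate were given per 1000000 UMIs with exact Poisson 95% intervals. Ratios carry exact conditional intervals and shares exact Clopper-Pearson intervals, and a count of 0 is bounded by 3 counts per group. Cells in both gates of a comparison were left out, except that Col10a1/Ihh cells were taken out of the Col2a1 gate. Shares at equal depth came from 100 draws of 3000 UMIs per cell, and no gate cell was shallower. Scrublet (scanpy 1.11.5, expected rate 6%) called 3.54% of barcodes doublets, which were kept and left out in an alternative. The named genes were the 9 members, for each the 5 genes of highest r among those with at least 200 UMIs, and up to 4 examples from lists of related genes. Members and lists were chosen with earlier results of these data known. The alternatives were another gene floor, a mitochondrial limit, cells of exactly one gate, Ptprc-free cells, no doublets, equal weight per cell, no top cell, doubled thresholds, another denominator, blood level subtracted, 50 UMIs as the minimum and 4 WPRE UMIs.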

Additional observations from a re-analysis of the deposited data

Results flagged for a closer look

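The barcodes under 1600 genes entered no comparison, and each of the 9 genes was above the limit that a count of 0 allows there. Over these 8092 barcodes, with a median of 2994 UMIs, Thbs1 had 957 CPM, more than in the Ptprc gate over the floor, and 46.6% of all Thbs1 UMIs lay in them. Comp had 27.5 CPM, Matn3 3.93, Thbs4 2.48, Thbs3 0.95, Matn2 0.77, Matn4 0.71, Matn1 0.59 and Thbs2 0.38. For these 8 genes that is 1.14% to 5.90% of their UMIs. No group has the number of samples that a comparison of single samples needs.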

How the results depend on the processing

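Of 196 recomputed counts of genes higher or lower, 182 stayed within 1.5 times the reported count, and of 476 recomputed ratios of called genes, 46 left their counting interval and 5 more turned sign. Levels in a gene's highest gate left their counting interval in 31 of 88 recomputations, and 12 of 16 shares of cells did so after thinning. Among cells in exactly one gate, the Bglap over Cxcl12/Lepr comparison had 1 gene higher, with Comp at -0.94 and Thbs3 at -0.56 (log2), the Dcn/Col3a1 over Bglap comparison had 5 higher and 0 lower, and the WPRE comparison of the Bglap and Cxcl12/Lepr gates had 2 higher and 1 lower. With doubled gate thresholds, Bglap over Col2a1 had 1 gene higher, Dcn/Col3a1 over Prg4/Cilp 5 higher and 0 lower with Matn3 at 2.87, the WPRE comparison of the Prg4/Cilp gate 3 lower with Matn3 at 0.085, and the other WPRE comparison 1 higher. With more than 4 WPRE UMIs, Matn2 was at 0.056 in the Prg4/Cilp gate. With the blood level subtracted, Col10a1/Ihh over Col2a1 had 1 gene lower. With 50 UMIs as the minimum, 1 gene was lower in Ihh-positive cells and 0 in Bglap over Cxcl12/Lepr, which was also 0 without the cell with most UMIs of the gene. The cause was not tested, except that the higher minimum counts fewer genes and that Thbs1, lower in Col10a1/Ihh over Col2a1, lay under the subtracted blood level in both groups. Cells in exactly one gate gave no value for the Ihh comparison, for Col10a1/Ihh over Col2a1 and for the WPRE comparison of the Prg4/Cilp gate, where fewer than 5 cells were left on a side. The pool gives no replicate to leave out. No paired analysis was possible because the columns carry no replicate. Depth limits Cxcl12/Lepr values most, where 3 counts make 14.1 CPM.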
